A study of Mus musculus with 12 samples.

Results

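The Notch receptor and ligand family was examined in mouse liver cells sorted by a Sox9 reporter. Its 8 members are the 4 receptors Notch1, Notch2, Notch3 and Notch4 and the 4 activating ligands Jag1, Jag2, Dll1 and Dll4. They were chosen by name, as the receptors and the activating ligands of the pathway. They are 8 of the 54227 gene symbols in the table, and all 8 were among the 16128 genes whose mean normalised count over the 12 libraries was at least 10, which were the genes tested. All libraries came from C57Bl/6 mice carrying the Sox9EGFP transgene, in which green fluorescence reports on Sox9, a transcription factor of the bile duct epithelium. The mice were fasted for 16 h, the livers were digested to single cells, and 12000 cells per library were sorted by flow cytometry. The 4 populations are named here neg (no EGFP), sub (the gate below low), low and high. Each had 3 libraries of total RNA.

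The EGFP-negative cells carried the same transgene and the same fast as the rest, so no group lacks the transgene. The gate reads a reporter and not the Sox9 protein. The labels do not say how many mice were used, whether libraries came from separate mice, or the animals' age or sex, so the p-values measure the spread between these libraries, which may be technical.

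Notch receptors sit on the cell surface and are activated by Jagged or Delta-like ligands on a neighbouring cell. Ligand binding leads to cleavage of the receptor by an ADAM protease and gamma-secretase, and the released intracellular part joins Rbpj in the nucleus and switches on targets such as Hes1. In the liver, Jag1 and Notch2 are needed for bile duct formation, while Dll4, Notch1 and Notch4 are best known from endothelium and Notch3 from mural cells and hepatic stellate cells.

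Notch2 and Dll4 were the members that passed the limma test between EGFP gates, in opposite directions. Notch2 averaged 176.9 normalised counts in neg, 2169 in sub, then 4510 in low and 5199 in high. Dll4 averaged 2457 in neg, 1502 in sub and 25.0 in low, and had no read in any high library. In limma, 1 of the 8 members, Notch2, rose from neg to sub, where 1.19% of all tested genes passed an adjusted p of 0.05. Both Notch2 (higher) and Dll4 (lower) passed in low against neg and again in high against neg, where 4.69% of tested genes passed in each contrast. Dll4 alone passed in high against sub, where 0.986% of tested genes passed. The moderated F test over the 4 populations called the same 2 members, with 4.23% of tested genes called. These comparisons share libraries, so the neg libraries enter 3 of the contrasts and the calls are not independent of each other.

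No member passed in limma between sub and low or between low and high, where 0.744% and 0% of all tested genes did. At an unadjusted p under 0.05, 3 members passed for low against sub (10.2% of tested genes) and 0 for high against low (4.24%). On the recovered reads of 12 libraries edgeR called no member in either contrast (1.11% and 0.211% of tested genes), with 2 members at an unadjusted p under 0.05 in each, where 1403 and 550 of the 16128 tested genes were. DESeq2 called 1 member in each (9.88% and 4.01% of tested genes), Notch3 lower in low than in sub and Notch4 lower in high than in low. It gave an adjusted p for 6 of the 8 members and none for Notch2 and Dll4.

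**Figure D1:**
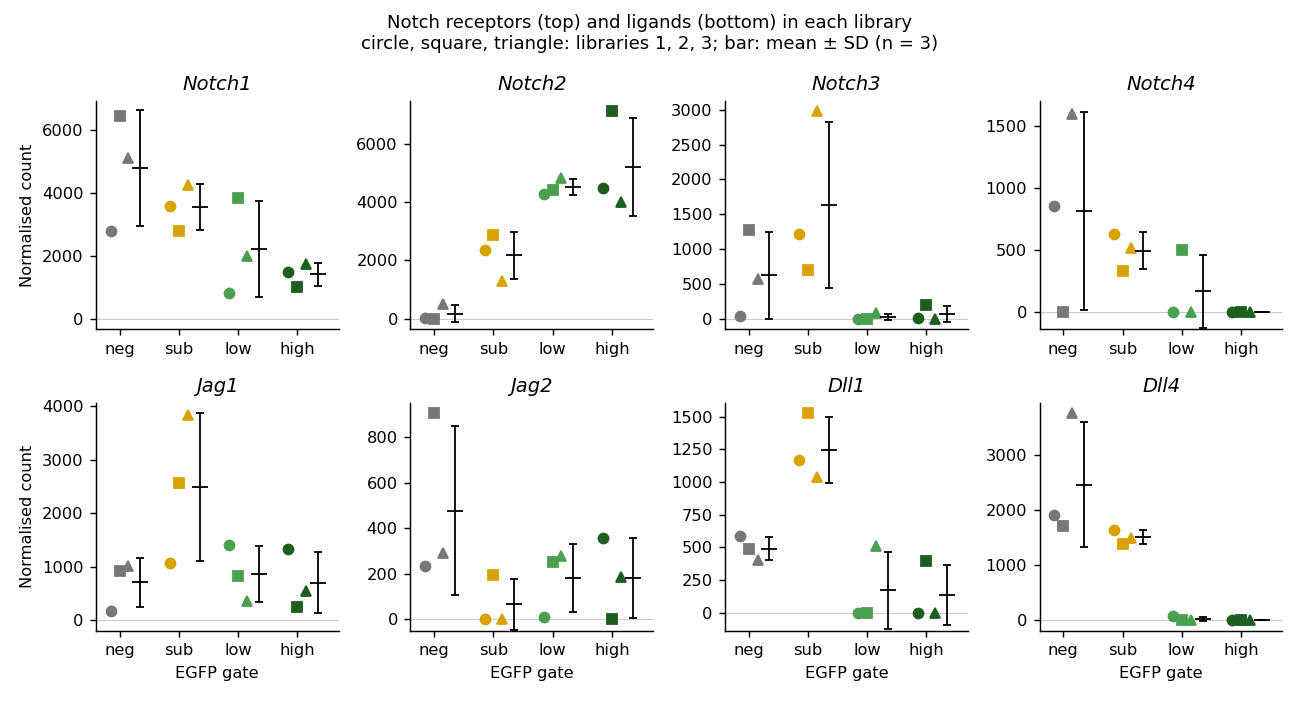
Normalised count (linear axis) of each Notch receptor (top row) and ligand (bottom row) in the 12 libraries by EGFP gate. Symbols mark libraries 1, 2 and 3, and the bar gives the mean and SD (n = 3). Notch2 lies at 505.1 or less in neg and at 1298 or more in every other library, while Dll4 lies at 1384 or more in neg and sub and at 75.0 or less in low and high.

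The libraries held 8775387 to 15535588 recovered reads and 9039 to 12687 genes above 0. Of the 96 member values, 20 were exactly 0, and these were 2 of 24 in neg, 2 in sub, then 7 in low and 9 in high. Cell type markers moved with the gates. The summed level of 10 endothelial markers lay between 98361 and 136830 in neg and between 28199 and 35359 in sub. It was between 744.6 and 1992 in low, and between 555.4 and 927.6 in high. The sum of 10 stellate and mesenchymal markers averaged 30334 in neg, 30925 in sub, then 1727 in low and 1685 in high. The 6 smooth muscle markers averaged 7989 in neg, 9273 in sub, and only 549.6 and 396.8 in low and high. The 10 biliary markers, Epcam and Krt19 among them, averaged 1653 in neg, 25067 in sub, then 70786 in low and 58906 in high, with 5 of the 10 lacking any read in neg and 1 lacking any read in each other gate. The 10 hepatocyte markers averaged 631.6 in neg, 7155 in sub, then 16509 in low and 19888 in high. Alb and Ahsg made up most of that sum in each low and high library, while Apoa1 was its largest part in each neg library. Hnf4a was 0 in all neg libraries and between 282.1 and 1947 in low and high, and Ttr was at most 0.966 in neg, at most 577.0 in sub, 18.7 to 837.1 in low and 800.4 to 1808 in high. Cps1, Cyp2e1 and Fgb were at or near 0 in most low and high libraries. The 10 Kupffer cell and macrophage markers averaged 206.1 in neg and 506.2 in sub, then 923.0 in low and 867.2 in high. Of these, Csf1r was 0 in all neg libraries and 518.6 to 1133 in low and high, whereas 7 of the 10 had no read in low and 6 none in high. The 10 lymphocyte markers averaged between 57.9 and 397.4 in the gates, with Cd3e at 0 throughout. In bulk samples such as these, fewer cells of a type and less RNA per cell cannot be told apart. The part of these shifts in cell type markers in the results for Notch2, Dll4 and the other members was not tested, except where members are set per marker count.

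Notch2, the receptor required in the biliary lineage, lies on the plus strand of chromosome 3, from 98013527 to 98150361 (GRCm38, the mm10 build, GENCODE M21). Dll4, a Delta-like ligand known for its role in endothelial sprouting and arterial identity, lies on the plus strand of chromosome 2, from 119325784 to 119335962. The 250 bases before the RefSeq start of each gene (GRCm38.p6) are given for this pair, which carry the calls, 5′ to 3′, with the GC box GGGCGG on either strand in capitals. The Notch2 window is chr3:98013288-98013537 and the Dll4 window is chr2:119325534-119325783, both on the plus strand. The RefSeq start of Notch2 differs from the GENCODE one, and the Notch2 window runs past the latter.
Notch2: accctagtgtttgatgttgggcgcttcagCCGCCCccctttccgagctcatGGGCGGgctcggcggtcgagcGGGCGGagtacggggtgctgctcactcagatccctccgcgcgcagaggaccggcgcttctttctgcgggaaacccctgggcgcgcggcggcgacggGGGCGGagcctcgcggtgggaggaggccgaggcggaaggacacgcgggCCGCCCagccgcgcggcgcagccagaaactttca
Dll4: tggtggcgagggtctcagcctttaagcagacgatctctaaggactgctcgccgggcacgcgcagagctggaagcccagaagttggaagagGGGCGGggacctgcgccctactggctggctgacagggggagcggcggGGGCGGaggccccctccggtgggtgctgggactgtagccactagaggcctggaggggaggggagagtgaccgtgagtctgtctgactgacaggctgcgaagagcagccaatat

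The Notch2 window holds 5 GC boxes and the Dll4 window 2, in a letter search that also covered the other members. RefSeq gave a window for all 8 members (9 windows, since Dll1 has 2). By the GENCODE gene bounds, the windows of Notch1 and Jag2 and 1 of those of Dll1 lie inside the gene. The Notch1 window is chr2:26503823-26504072, on the minus strand, while its GENCODE gene starts at 26516663. The windows of Notch2, Jag1 and Notch4 lie partly inside the gene. Notch1 and Jag2 had 5 matches each, with 2 in Jag2 that overlap, and Notch3 had 4. Notch4, Jag1 and Dll1 had none. Of 32851 promoter windows of this length, 32.7% hold at least 1 GC box. The letters TGGGAA (the Rbpj core, in 21.6% of windows), AACAAT (a SOX core, 9.42%) and GGAAGT (an ETS core, 19.7%), searched on both strands, were found in no member's window, which says only that these letters are not there. The E-box letters CANNTG, which 66.2% of windows hold, had 1 match for Jag1, 1 for Notch4, and 1 and 3 in the windows of Dll1, and none in the other members' windows.

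Among the receptors, Notch2 was the one with differences past the threshold in limma. It was 25.6, 0 and 505.1 in neg libraries 1, 2 and 3. It was 2346, 2862 and 1298 in sub, 4283, 4427 and 4820 in low, and 4482, 7117 and 3998 in high. The neg libraries lay apart from all others, and neg 3 was the only one of them well above 0. Gm42820, an annotated gene that shares 541 exon bases with Notch2 on the same strand, was 231.1 in neg 2, where Notch2 was at 0, and how reads were divided between them is not stated. Against neg, Notch2 was 12.3 times as high in sub, then 25.5 times in low and 29.4 times in high as a ratio of means. Without neg 3 these ratios were 169.7, 352.8 and 406.8. On the log2(normalised count + 1) scale, used for all log2 values here, the differences had an SE of 1.40 and came to 6.44 for sub (adjusted p 0.0229), 7.57 for low (0.00283) and 7.73 for high (0.00206).

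The sub libraries of Notch2 also lay apart from those of low and high. The mean was 2.08 times as high in low as in sub and 2.40 times as high in high, with log2 differences of 1.13 (adjusted p 0.810) and 1.29 (0.761), neither of which passed. High and low differed by a mean ratio of 1.15, and their libraries overlapped. The call for sub against neg was lost in 11 of the 12 fits that left out 1 library and kept only without neg 3, and it had an adjusted p between 5.10e-05 (edgeR on 10 libraries) and 0.652 (limma on the sub and neg libraries alone). The calls against neg in low and in high each held in 8 of 12 such fits. Both were lost without neg 1, the former also without any single low library and the latter without any single high library. Each was also lost in the fit of only the populations compared and in limma on 10 libraries.

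Notch1, on the minus strand of chromosome 2 (26457903 to 26516663), was the receptor found in every library. It was 2803, 6451 and 5132 in neg, 3595, 2795 and 4263 in sub, 827.5, 3848 and 1994 in low, and 1498, 1028 and 1745 in high. Every high library lay under every neg and every sub library, while the low libraries spread from under the lowest high library to within the neg range. Notch1 differed by -1.70 ± 0.55 (SE) log2 units between high and neg, which missed the threshold at an adjusted p of 0.0917. The differences of high from sub (-1.33, adjusted p 0.393), low from neg (-1.29, 0.246), low from sub (-0.92, 0.631) and sub from neg (-0.37, 0.862) did not pass either. With DESeq2 on 12 libraries, which called 14% of tested genes in that contrast, Notch1 passed as lower in high than in neg (adjusted p 0.0345). It did not pass with DESeq2 on 10 libraries (0.236) or with edgeR on 12 (0.181) or on 10 (0.489).

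Notch3, on the minus strand of chromosome 17 (32120820 to 32166852), was highest on average in sub. Its values were 31.1, 1276 and 570.8 in neg and 1218, 693.8 and 2976 in sub. In low it had 0, 0 and 75.6, and in high 2.6, 194.0 and 0. Every sub library was above every low and high library, while neg overlapped with sub and with high and neg 1 lay below low 3. The sub mean was 64.7 times the low mean and 24.9 times the high mean, at least 639.3 times without low 3 and at least 627.7 times without high 2. Without sub 3 the sub mean was 37.9 times the low mean and 14.6 times the high mean. The log2 differences were -8.32 ± 2.56 (SE, adjusted p 0.170) for low against sub and -7.26 (0.262) for high against sub, and they did not pass in limma. Sub and neg differed by 2.25 (adjusted p 0.781), low and neg by -6.07 (0.232) and high and neg by -5.01 (0.346). DESeq2 called Notch3 on 12 libraries in low against sub (adjusted p 0.0475), but not on 10 (0.151), and edgeR called it there on neither (0.411 and 0.710). On the 10 libraries without sub 3 and high 2, where Notch3 had its highest sub and high values, DESeq2 called it in high against neg (0.00419, with 11.5% of tested genes called) and in high against sub (0.00597, with 9.34% called), where it did not on 12 (0.397 and 0.189) and edgeR did not on either.

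Notch4, a receptor described mainly in endothelium, lies on the plus strand of chromosome 17, from 34564268 to 34588503. It was 854.0, 0 and 1599 in neg and 632.3, 336.6 and 517.7 in sub. It was 0.742, 504.7 and 0 in low, and no read was found in any high library. The low library with more than 1 read lay inside the sub range, and neg 2 was at 0 while the other neg libraries held the highest values of all. High was at least 163.4-fold lower than sub and at least 269.7-fold lower than neg, taking 3 reads per library as the floor of high. The latter bound rested on single neg libraries, at 140.8-fold without neg 3 and 404.6-fold without neg 2. In limma neither passed, with log2 differences of -8.91 ± 3.01 (SE, adjusted p 0.223) and -6.79 (0.259). Notch4 in high against neg did pass in edgeR and in DESeq2 on 12 libraries, which called 3.84% and 14% of tested genes in that contrast. DESeq2 also called Notch4 in high against sub, with an adjusted p of 0.000436 on 12 libraries (9.21% of tested genes called) and of 0.0106 on 10, while edgeR did not (0.117 on 12 libraries and 0.184 on 10). For high against neg, edgeR on 10 libraries did not call it (0.0689) and DESeq2 on 10 did (0.00171).

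The direction of Notch4 between sub and neg depended on the scale and on single neg libraries. The mean was lower in sub, at 0.606 times that of neg, but 1.16 times that of neg without neg 3. The log2 difference was 2.11 (adjusted p 0.847), and -1.28 without neg 2, the neg library at 0. Low differed by -5.65 (adjusted p 0.541) from sub and by -3.53 (0.609) from neg.

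Among the ligands, Dll4 had the clearest separation. It was 1906, 1715 and 3751 in neg and 1638, 1384 and 1483 in sub. In low it was 75.0, 0 and 0, and it was 0 in all high libraries. The neg and sub libraries lay far above the low and high ones, and every neg library was also above every sub library. Dll4 shares 214 exon bases with Gm14207 on the opposite strand, and whether counting used strand is not stated.

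Dll4 was 98.3 times as high in neg as in low as a ratio of means, and at least 964.1 times without low 1, which held all Dll4 reads of low. It was at least 810.5-fold lower in high than in neg and at least 495.3-fold lower in high than in sub. The log2 differences had an SE of 2.20 and were -9.09 for low against neg (adjusted p 0.0206), -11.17 for high against neg (0.00462) and -10.55 for high against sub (0.0254). Low against sub, a 60.1-fold difference in means (at least 589.1-fold without low 1), missed the threshold at a log2 difference of -8.47 and an adjusted p of 0.0897. Sub and neg differed by -0.62 (adjusted p 1) with a neg mean 1.64 times that of sub. High against low, where low 1 alone had reads, differed by -2.08 (adjusted p 1), and edgeR on 10 libraries called it (0.459% of tested genes).

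The call of Dll4 for high against neg held in all 26 alternatives that gave it a p, with a highest adjusted p of 0.0253. The call for low against neg was lost without neg 3 (adjusted p 0.0534) and in a fit of those populations alone (0.128). The call for high against sub was lost without sub 2 (0.0665), without sub 3 (0.0551), in a fit of those populations alone (0.110) and in limma on 10 libraries (0.0958). Low against sub passed without low 1 (0.0124), the library holding the only Dll4 reads of that gate, and in 5 other alternatives.

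Dll1, a Delta-like ligand that can activate the same receptors, lies on the minus strand of chromosome 17, from 15367354 to 15376872. It was 584.5, 485.5 and 402.7 in neg and 1171, 1525 and 1039 in sub. It was 0, 0 and 512.9 in low and 0, 398.2 and 0 in high. Every sub library was above every other library, and in low and in high 1 library each was not at 0. The sub mean was 2.54 times the neg mean, 7.28 times the low mean and 9.38 times the high mean, and at least 488.5 times without low 3 and at least 479.6 times without high 2. No Dll1 difference passed in limma, with log2 values of 1.34 ± 2.69 (SE, adjusted p 0.944) for sub against neg, -7.26 (0.305) for low against sub, -7.38 (0.290) for high against sub, -5.92 (0.283) for low against neg and -6.05 (0.262) for high against neg. Dll1 passed in edgeR on the 10 libraries without sub 3 and high 2, the lone high library with Dll1 reads, as lower in high than in neg (adjusted p 0.0410, with 3.96% of tested genes called) and than in sub (0.0461, with 1.67% called).

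Jag1, the ligand whose loss causes bile duct paucity, lies on the minus strand of chromosome 2, from 137081456 to 137116644. It was 184.5, 930.7 and 1025 in neg and 1069, 2569 and 3843 in sub. It was 1407, 838.6 and 369.0 in low and 1334, 249.6 and 543.9 in high. The sub libraries lay above every neg library, with sub 1 just above neg 3, and sub overlapped with low and high. The sub mean was 3.50 times the neg mean, and the log2 difference of 1.97 ± 0.98 (SE) did not pass (adjusted p 0.543). The differences of low (-1.53, adjusted p 0.671) and high (-1.95, 0.511) from sub did not pass, nor did those from neg (0.43, 0.906 and 0.01, 1). Jag1 was above 0 in all 12 libraries and passed in no contrast.

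Jag2, on the minus strand of chromosome 12 (112907819 to 112929776), is a Jagged ligand with its lowest mean in sub. It was 234.9, 905.0 and 289.7 in neg and 0, 192.3 and 0 in sub. It was 7.4, 249.8 and 279.4 in low and 354.8, 1.0 and 184.6 in high. All neg libraries lay above all sub libraries, and the remaining pairs of gates overlapped. Sub differed from neg by -6.10 ± 2.69 (SE, adjusted p 0.466). The other log2 differences were 3.86 (low against sub, 0.687), 3.14 (high against sub, 0.715), -2.24 (low against neg, 0.717) and -2.96 (high against neg, 0.630), and none passed.

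Counted over the members, libraries of the compared gates did not overlap for 5 of 8 in sub against neg (9.68% of all tested genes, in either direction). They did not overlap for 4 of 8 in low against sub (11.7% of tested genes), 0 of 8 in high against low (7.34%), 2 of 8 in low against neg (16.9%), 4 of 8 in high against neg (18.8%) and 6 of 8 in high against sub (13.1%). The median log2 difference of the 8 members was 1.65 for sub against neg, -3.59 for low against sub, -0.42 for high against low, -2.89 for low against neg, -3.98 for high against neg and -4.61 for high against sub. Over all tested genes the medians were 0 in the first 4 of these contrasts, 0.13 in high against neg and 0.20 in high against sub.

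**Figure D2:**
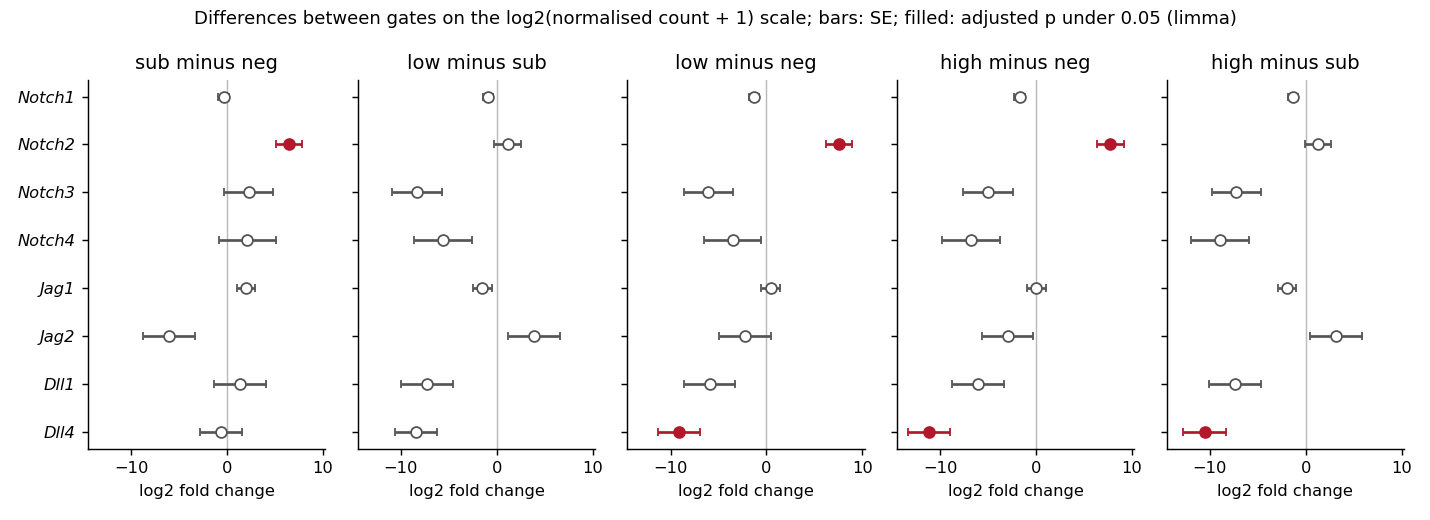
Log2 difference (horizontal axis, log2(normalised count + 1) scale) of each member in 5 contrasts between gates, with SE bars from limma. Filled points passed an adjusted p of 0.05 and are Notch2 in sub, low and high against neg and Dll4 in low and high against neg and in high against sub.

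Levels of different genes were compared per kb of exon, since longer transcripts collect more reads. The receptors together amounted to 532 ± 196 normalised counts per kb in neg, 714 ± 132 in sub, then 599 ± 144 in low and 590 ± 144 in high (n = 3, SD), and the ranges of the gates overlapped while their makeup differed. The summed ligands amounted to 945 ± 305 in neg and 1122 ± 211 in sub, against 222 ± 41.2 in low and 179 ± 87.8 in high. Every neg and sub library held more ligand per kb than every low and high library, with ranges of 698.8 to 1291 and 119.8 to 279.9.

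Within the receptor sum per kb, Notch1 made up 63.7 ± 10.4% in neg, 34.9% in sub, then 24.2% in low and 18.2% in high. Notch2 made up 2.56%, 30.1%, 72.5% and 80.7% in the same order. Its neg share came mostly from neg 3, where its normalised count was 505.1, against 25.6 in neg 1 and 0 in neg 2. Notch1 thus ranked first among the receptors in neg and Notch2 in low and high, while in sub Notch1, Notch2 and Notch3 lay at 249.5 ± 51.7, 201.1 ± 73.9 and 201.4 ± 147.8 per kb (SD, n = 3), within their spread. This order depended on the length used, since the merged exons of Notch1 span 14232 bases and its longest transcript 9488. Per kb of the longest transcript, Notch1 made up 41.8 to 44.6% of the receptors in sub, above Notch2 (12.1 to 38.7%) and Notch3 (12.3 to 36.3%) in every sub library. Notch4 had the lowest mean of the receptors in sub and no read in high. In neg, Notch4 (101 ± 99.3 per kb) and Notch3 (77.4 ± 77.1) did not differ beyond their spread.

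Within the ligand sum per kb, Dll4 made up 66.3% in neg, 36.0% in sub, then 2.48% in low and 0% in high. Jag1 made up 12.3%, 36.3%, 66.8 ± 34.0% and 63.6 ± 28.2%, and Dll1 13.6%, 26.9%, 18.0 ± 31.2% and 22.9 ± 39.7% (SD, n = 3). The shares in low and high spread widely, since Jag1 was the largest ligand in 4 of these 6 libraries and Dll1 in low 3 (54.0% against 28.1% for Jag1) and high 2 (68.7% against 31.2%). In sub the mean level of Jag1 was 428.0 ± 238.3 per kb, that of Dll4 389.8 ± 33.1 and that of Dll1 295.1 ± 59.5, with overlapping libraries, and Jag2 was lowest at 9.21 ± 15.9. In low, Jag1 (149.6 ± 89.2 per kb) had the highest mean ligand level, followed by Dll1 (40.5 ± 70.2), Jag2 (25.7 ± 21.4) and Dll4 (6.49 ± 11.2), and the libraries of Jag1 and Dll1 overlapped, as did those of Dll1 and Jag2. The larger Jag1 share in low and high stands beside a mean Jag1 level that was lower there than in sub.

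**Figure D3:**
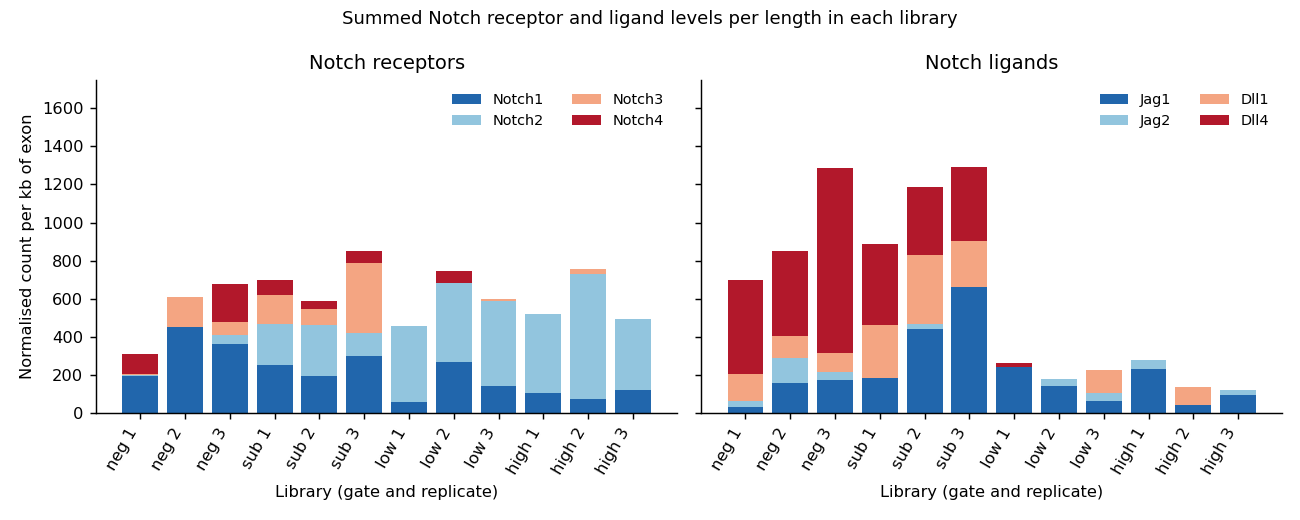
Normalised counts per kb of exon (linear axis from 0), stacked over the 4 receptors (left) and the 4 ligands (right) for each of the 12 libraries. Receptor sums average between 532 and 714 per kb in the 4 gates with Notch2 in place of Notch1 as the largest block in low and high, and ligand sums drop from at least 698.8 in neg and sub to at most 279.9 in low and high.

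Notch1, Notch4 and Dll4 are endothelial-associated genes, and the endothelial marker sum averaged 116026 in neg and 31682 in sub, so these members were also set per 1000 endothelial marker counts. Notch1 was 24.8, 47.1 and 52.2 in neg libraries 1, 2 and 3 and 114.2, 79.0 and 151.2 in sub. Dll4 was 16.9, 12.5 and 38.1 in neg and 52.0, 39.1 and 52.6 in sub. For both, all sub libraries lay above all neg libraries, with sub means 2.77 and 2.13 times those of neg, the latter 3.26 times without neg 3. The two-sided exact permutation p was 0.1 for each, which is the smallest that 3 against 3 libraries allow. Notch4 averaged 16.0 ± 5.67 in sub and 7.94 ± 8.14 in neg (SD, n = 3), and its libraries overlapped (exact p = 0.2). Its sub mean was 2.01 times that of neg, but 4.23 times without neg 3 and 1.34 times without neg 2. Stab2 and Kdr were the largest parts of the marker sum in each neg library, and the markers fell unevenly. Stab2 was 33542, 33451 and 23317 in neg and 5013, 7516 and 4188 in sub. Pecam1 was 9984, 15302 and 11060 in neg and 5059, 9150 and 6398 in sub. Over the geometric mean of the same markers, the sub means were 3.39 (Notch1) and 2.74 (Dll4) times those of neg. Ratios to single markers were not tested.

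The absolute levels of Notch1 and Dll4 were lower on average in sub than in neg, so the order of the gates depends on whether the marker sum is taken as the base. The 8 large-vessel and arterial endothelial markers, such as Efnb2 and Vwf, had a summed level of 10885 to 13740 in neg and 9761 to 21882 in sub, with the highest value in sub 2 and overlapping libraries. The sum averaged 3746 in low and 2668 in high, where most of it was Efnb2, while Vwf was at most 182.1 there. In low and high, where the endothelial sum averaged 1384 and 684.3, Notch1 averaged 2223 and 1424, or 415.4 to 2717 and 1615 to 3143 per 1000 endothelial marker counts, while Dll4 and Notch4 were at or near 0 in most of these libraries. The part of other cell types in the Notch1 ratio was not tested.

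Per 1000 stellate and mesenchymal marker counts, Notch3 was 1.39, 44.3 and 14.4 in neg and 42.6, 25.8 and 79.7 in sub. The sub mean was 2.47 times the neg mean (exact p = 0.3), and 6.28 times without neg 2. On the same base Jag1 averaged 78.7 in sub and 22.1 in neg (3.56 times, exact p = 0.1, the smallest possible). The Jag1 libraries did not overlap on this base and the Notch3 libraries did. Jag1 was also 224.4 to 978.2 per 1000 of these counts in low and 157.5 to 797.6 in high, where the stellate sum was lowest, and the biliary sum was higher in sub than in neg (25067 against 1653). The part of other cell types in this ratio was not tested. Over the geometric mean of the same markers the Notch3 libraries did not overlap (3.44 times, exact p = 0.1; 6.96 times without neg 2). Adjusted over these 5 ratios, the lowest p was 0.167.

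**Figure D4:**
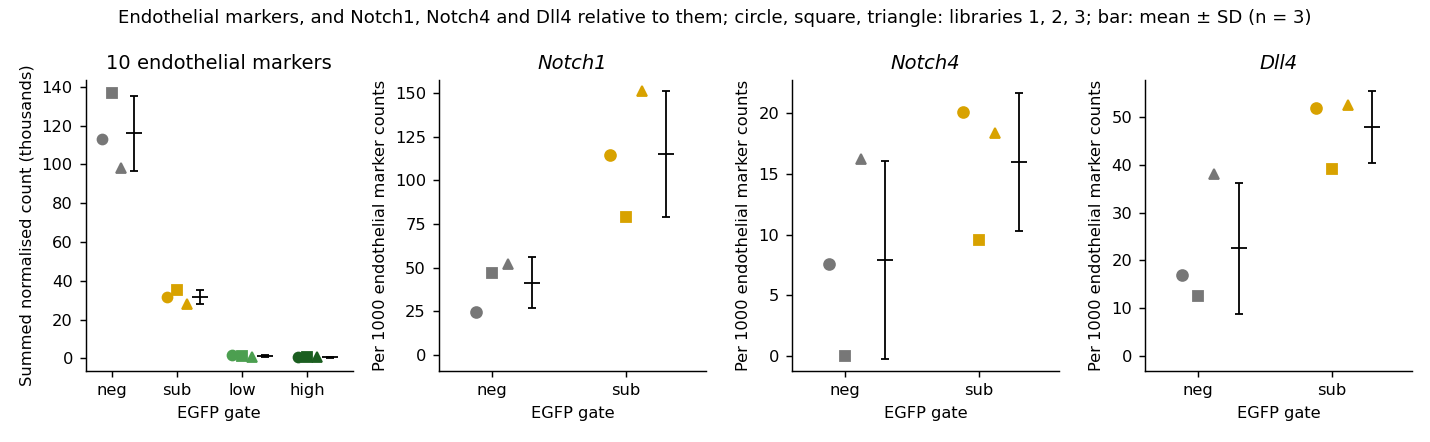
Left panel, summed normalised count of 10 endothelial markers by EGFP gate, divided by 1000; other panels, Notch1, Notch4 and Dll4 per 1000 of those counts in neg and sub (linear axes). Symbols mark libraries 1, 2 and 3 and bars the mean and SD (n = 3). The marker sum is lower in every sub library than in every neg library, whereas Notch1 and Dll4 relative to it are higher in every sub library.

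The other genes of the pathway were taken from a list of 48, of which 42 were tested. In low against neg 3 of the 42 passed in limma and in high against neg 2 of 42, beside 4.69% of all tested genes in each contrast. Lfng, the Fringe glycosyltransferase that modifies Notch and shifts its preference toward Delta-like ligands, fell. It was 376, 1574 and 2015 in neg and 0, 813 and 296 in sub, had 1 value above 0 among the 6 low and high libraries, and differed by -9.76 ± 2.65 (SE, adjusted p 0.0394) in low and by -10.05 (0.0335) in high against neg. Dtx4, a Deltex ubiquitin ligase, rose by 8.19 ± 2.22 (adjusted p 0.0389) and 8.80 (0.0258) in the same contrasts; it was 0 in all neg libraries and averaged 729 ± 996 in sub, then 412 ± 409 in low and 564 ± 369 in high (SD, n = 3). These calls depended on single libraries. In fits without 1 library, Lfng in low against neg missed the threshold in 10 of 12, all but those without sub 1 or sub 2, and Dtx4 in 8 of 12, those without any 1 of the neg or low libraries, high 1 or high 3, with adjusted p up to 0.115 and 0.109. In high against neg, Lfng missed it in 8 of 12, those without any 1 of the neg or high libraries, low 1 or low 3 (up to 0.105), and Dtx4 without high 1 or high 3 (0.0881 and 0.0818). Over these fits the number of pathway genes called was 1 to 5 for low against neg and 0 to 4 for high against neg. The number was 0 in the fit of only neg and low. In the fit of only neg and high, Dtx4 missed the threshold (adjusted p 0.0752) and Lfng passed (0.0406). With the replicate block, no filter or quantile normalisation, 2 pathway genes passed in low against neg in place of 3. Kat2b, described below, passed in each of these fits, so Lfng and Dtx4 did not both pass.

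Kat2b, a histone acetyltransferase of the Notch nuclear complex, rose in low against neg by 2.90 ± 0.66 (adjusted p 0.0134), and in high against neg it missed the threshold (2.28, 0.0534). It was 231, 336 and 775 in neg, 2389, 1222 and 1994 in sub, 2951, 2414 and 3565 in low and 1823, 1540 and 2492 in high, with every neg library under all others. This call held in all 12 fits that left out 1 library, with adjusted p of 0.00266 to 0.0436, but not in the fit of only neg and low (0.0872) or without a variance trend (0.148). No pathway gene passed in limma for sub against neg, low against sub, high against low or high against sub. At an unadjusted p under 0.05 these contrasts held 3, 2, 1 and 4 of the 42, where 9.54%, 10.2%, 4.24% and 10.2% of all tested genes did. On 12 libraries edgeR called 1 (Dtx4), 0, 0 and 0 of them, against 1.28%, 1.11%, 0.211% and 1.41% of tested genes. DESeq2 on 12 libraries called 3, 3, 0 and 3 of the 35 it gave an adjusted p, against 10.5%, 9.88%, 4.01% and 9.21% of tested genes. The DESeq2 calls were Dtx1, Dtx4 and Kat2b in sub against neg and Dtx1, Lfng and Mfng in low and in high against sub. Dtx1, another Deltex gene, was 0 in all sub libraries and also in 1 or more libraries of each other gate.

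The other tested genes of the list, the ADAM proteases, gamma-secretase subunits, ligand-trafficking genes and Rbpj among them, passed in no contrast in limma. In low and in high against neg 8 of the 42 had an unadjusted p under 0.05, where 16% and 16.4% of tested genes did. In both contrasts edgeR on 12 libraries called the same genes as limma (3.73% and 3.84% of tested genes), and DESeq2 on 12 libraries called Mfng and Neurl3 besides Dtx4, Kat2b and Lfng (14.6% and 14% of tested genes). Of the 5 transcriptional targets 3 were tested, and in high against sub 1 of them was higher and 2 were lower. Hey1 was 0 in all but sub 2 (1440) and neg 3 (69.5). Heyl was 0, 200.4 and 469.8 in sub, at most 13.5 in neg and low, and 0 in all high libraries, with a difference of -5.51 ± 2.43 (SE, adjusted p 0.433) between high and sub. Hes1, the target most used as a readout of Notch activity and named here after its values were seen, was 1068, 1471 and 1227 in neg, 2704, 412 and 1912 in sub, 1132, 3372 and 6288 in low and 3681, 4203 and 4601 in high. All high libraries were above all neg and sub libraries, and the difference of 1.73 ± 0.69 (SE) from neg had an adjusted p of 0.194.

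The genes whose pattern over the 12 libraries was most like each member were ranked by Pearson's r among 9606 tested genes with a mean of at least 100, as a description. For Notch2 they were Dsp (desmoplakin, a protein of epithelial desmosomes; r = 0.98), Fras1 (0.98) and Cct8 (0.97). For Dll4 they were Lrrc32 (0.99), Col3a1 (a fibrillar collagen; 0.99) and Adamts2 (a procollagen protease; 0.99). For Notch1 they were Fli1 and Tal1 (transcription factors of endothelial and blood cells; 0.90 and 0.89) and Sfrp1 (0.89).

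Notch3 was most like Ier3 (0.91), Tfpi (0.91) and Lmod1 (a smooth muscle protein; 0.90), and Dll1 was most like Tfpi (0.98), Ier3 (0.93) and Rasgrp2 (0.93). Notch3 and Dll1 therefore shared 2 of their 3 closest genes. Notch4 was closest to Rcn3 (0.98), Lepr (0.90) and Cald1 (0.88), and Jag2 to Scfd1 (0.94), Mpp6 (0.89) and Gm45223 (0.87). Jag1 had the lowest such values, at 0.82 for Med7, 0.81 for Mtus2 and 0.80 for Tbc1d22b. The points are the same libraries throughout and include many zeros, so a shared set of zero libraries raises r.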

How the data were processed

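Sorted-cell total RNA was profiled in 12 libraries, 3 per EGFP gate, made with a stranded pico-input total-RNA kit after DNase treatment, per the labels' protocols. The values analysed are the normalised counts (unit: signal) that the authors deposited for each gene symbol and library. The submitters' processing notes name Salmon, DESeq2 1.26.0 and mm10. Which Salmon version and annotation were used, and whether strand was, is not given in the sources used here. Dividing each library by its smallest value (0.691 to 1.22) gave whole numbers, within 0.01, for 100% of the values above 0. The values therefore behave as rounded estimated reads divided by 1 factor per library, and whole reads were recovered from them. Floors cover counting error only.

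Genes with a mean of at least 10 were tested as log2(normalised count + 1) with limma 3.58.1 in R 4.3.3 (lmFit, eBayes with a variance trend) in a single fit of all 12 libraries with gate as the only term, two-sided, with Benjamini-Hochberg adjustment over 16128 genes. Adjusted p-values are from limma unless another tool is named. The floor was 3 reads per library, and a gate whose libraries all held 3 or fewer counted as at the floor. Levels per kb used the union of GENCODE M21 exons. Permutation tests were exact and two-sided. The alternatives were a pseudocount of 0.5 or of 5, omission of the filter, a minimum mean of 100, equal totals, quantile normalisation, a replicate block, no variance trend, array weights, fits of only the populations compared, leaving out each library, and edgeR 4.0.16 (quasi-likelihood) and DESeq2 1.42.0 on recovered reads of 12 libraries and of 10. The 10 leave out sub 3 and high 2, in which 1 read is worth close to 1, so those fits changed both the tool and the libraries. Marker ratios were also computed over the geometric mean of each list. A limma fit of those 10, ratios without the library that holds most of a low mean, Notch4 ratios without each neg library, and Notch3 ratios without each sub or neg library, were added after seeing the data. The procedure was also run on simulated data, whose outcome is not given here and was not used to read the results.

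The members, the pathway list and the marker lists were chosen with earlier results of these data known. All members are named, and other pathway genes are named where they passed the threshold in limma or in a count test on 12 libraries, with Hes1, Hey1, Heyl and Rbpj as exceptions. For likeness of pattern the 3 genes with the highest Pearson r were named. Same-numbered libraries share a tag in the descriptions whose meaning is not stated. Protein sequences were not used here.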

Additional observations from a re-analysis of the deposited data

How the results depend on the processing

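Counts of members called by limma moved as follows. For sub against neg the count went from 1 to 0 with no filter, with no variance trend, in a fit of only the populations compared and in limma on 10 libraries. For low against sub it went from 0 to 1 with a pseudocount of 5, quantile normalisation, no variance trend, DESeq2 on 12 libraries and edgeR or DESeq2 on 10, where all genes called went from 120 to 173, 91, 195, 1593, 271 and 1501. For high against low it went from 0 to 1 with DESeq2 on 12 libraries and with edgeR or DESeq2 on 10. For low against neg it went from 2 to 0 in a fit of only those populations and to 1 in limma on 10 libraries, and for high against neg from 2 to 1 in each of these. For high against sub it went from 1 to 0 in those same fits, to 2 with edgeR and to 3 with DESeq2 on 10 libraries. The F test went from 2 to 1 with no variance trend and in limma on 10 libraries. Leaving out 1 library gave 0 to 1 for sub against neg, low against sub and high against sub, 1 to 2 for low and high against neg, and 1 to 2 for the F test. For high against neg the count was 3 with edgeR on 12 and on 10 libraries. In the fits of only the populations compared, all genes called also went from 192 to 0 in sub against neg, from 757 to 203 in low against neg, from 757 to 341 in high against neg and from 159 to 8 in high against sub. The cause of these moves was not tested. Fits of only 2 populations have fewer libraries, and those on 10 leave sub and high with 2 each. DESeq2 counts are given only where every called member had an adjusted p.

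Signs reversed for Notch4 in sub against neg (2.11 in limma, -0.70 with edgeR and -0.72 with DESeq2 on 12 libraries, -0.72 and -0.75 on 10) and for Jag1 against neg, where the differences are near 0. For Jag1 in high against neg the value was -0.039 at equal totals and -0.0067 with DESeq2 on 12 libraries. Leaving out 1 library gave -0.36 to 0.95 for low and -0.79 to 0.60 for high, and -1.28 to 4.04 for Notch4. These reversals cover high against low only for Dll4 and Notch4. In that contrast Dll1 also changed sign, at -3.00 to 2.88 when 1 library was left out, beside -0.12 with all 12.

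With the replicate block, the members called numbered 1 for sub against neg, 0 for low against sub and high against low, 2 for low and for high against neg, 1 for high against sub and 2 for the F test, as without it. Deviations of same-numbered libraries from their gate means correlated at -0.0161 to 0.0266 over 18 pairs (mean 0.0088). Libraries with different numbers gave -0.0447 to 0.0234 over 36 pairs (mean -0.0044). Values this near 0 cannot decide whether libraries were paired, given the spread between libraries. Whether same-numbered libraries were paired by design is not stated. The spread between libraries limits what 3 per gate can show, with a median SE of 2.35 log2 units over the tested genes.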

Other observations

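Several members share exon bases with another annotated gene, and how the counting divided such reads is not stated. Dll4 shares 214 bases with Gm14207 on the opposite strand. Gm14207 was 463.6, 0 and 622.9 in neg, 0, 982.3 and 0 in sub, and 0 in all low and high libraries, so it had reads only in gates where Dll4 had them. Notch1 shares 1068 bases with 0610009E02Rik on the opposite strand, which had reads in neg 1 alone (368.9). Notch2 shares 541 bases with Gm42820 on the same strand, which averaged 84.6 over the 12 libraries. Gm42820 was 0, 231.1 and 2.90 in neg, 0, 0 and 92.8 in sub, 78.7, 0 and 609.0 in low, and 0, 0 and 0.817 in high, so it had reads in neg 2, where Notch2 was at 0. Whether reads of the shared bases moved between the genes was not tested. Notch3 shares 488 bases with Gm17276 on the opposite strand, which averaged 1.94. Dll1 shares 867 bases with A930024N18Rik, a symbol not matched in the table.

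Some members were at 0 in 1 library of a gate and high in another. Notch4 was 0 in neg 2 (0 recovered reads) and 1599 in neg 3 (1656 reads). Dll1 was 0 in low 1 and low 2 and 512.9 in low 3 (624 reads). Jag2 was 0 in sub 1 and sub 3 and 192.3 in sub 2 (168 reads). The cause of these gaps between libraries of a gate was not tested.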
